A study of Homo sapiens with 4 samples.

Results

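The genes described here encode enzymes and membrane proteins of the lysosome. They were taken by symbol from a list of 41 genes, which held 9 proteases, 12 glycosidases, 5 sulfatases, 8 genes of lipid handling, 5 membrane proteins and 2 transcription factors, out of the 60671 genes of the count table. RNA was sequenced from SK-N-BE(2), a human cell line long established from a neuroblastoma and carrying extra copies of MYCN. There were 2 libraries with a control short hairpin RNA (shNC) and 2 with a hairpin against METTL14 (shMETTL14), and no other agent was named for either group. Both hairpins were delivered by lentivirus with puromycin selection, according to the study's methods. Which of the METTL14 hairpins in the methods the sequenced cells carried is not given, and neither is whether the libraries came from separate cultures, so the p-values measure only the spread between these libraries. METTL14 is the partner of METTL3 in the complex that writes N6-methyladenosine (m6A) on mRNA, and the comparison asks how lysosomal transcripts differed when its level was reduced.

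The lysosome is the acidic compartment in which proteins, sugars and lipids are broken down to their building blocks. Its soluble hydrolases are made in the endoplasmic reticulum and carried to it largely by mannose 6-phosphate receptors, its limiting membrane is coated by heavily glycosylated proteins, and a proton pump, the V-ATPase, keeps it acidic. TFEB and TFE3 are transcription factors of the MiT/TFE family that bind E-box sequences in the promoters of many of these genes, and their entry into the nucleus is held back by the kinase mTORC1 at the lysosomal surface.

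METTL14 itself was counted at 753 and 754 reads in the shNC libraries and at 303 and 321 in the shMETTL14 libraries. That was 41.7% of the control level, a log2 fold change of -1.26 ± 0.08 (SE, edgeR quasi-likelihood adjusted p = 3.64e-11), so the labels matched the targeted gene. The 4 libraries held 18925786 to 19886214 reads counted in genes. All 12 neuroblastoma markers looked up were above the count filter. MYCN was counted 52554 and 49710 times in shNC and 61727 and 61457 times in shMETTL14, a log2 fold change of 0.28 (edgeR adjusted p = 3.84e-07). Of the 12 neuroblastoma markers, 3 were higher (25%) and 8 lower (66.7%) in shMETTL14. Of 10 mesenchymal markers 9 were tested, with 2 higher (22.2%) and 6 lower (66.7%). The shares over all genes tested were 27.2% higher and 25.3% lower. Markers of other cells were scarce. The 10 macrophage markers summed to 51 and 60 reads in shNC and to 62 and 48 in shMETTL14. Only PTPRC of these 10 passed the count filter, with 34 and 40 reads in shNC and 29 and 30 in shMETTL14. CD68 was at 0 in both shNC libraries and at 2 and 0 in shMETTL14. The 6 lymphocyte markers summed to 7 and 11 reads against 2 and 3, with MS4A1 and NKG7 at 0 in all 4 libraries. The part of the neuroblastoma and mesenchymal marker differences in the lysosomal values was not tested.

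A gene was called where the edgeR quasi-likelihood adjusted p, taken over all 16309 genes tested, was under 0.05. Of the 41 lysosomal genes 40 passed the count filter, and CTSZ, a cysteine carboxypeptidase, did not, with 2 and 5 reads in shNC and 2 and 2 in shMETTL14. Of the 40, 15 were higher in shMETTL14, 6 were lower and 19 were not called. The background was high, since 27.2% of all genes tested were called higher, 25.3% lower and 52.5% in either direction. The shares in the list were 37.5% higher, 15% lower and 52.5% in either direction. Among genes whose log2 CPM averaged 2 or more, which 37 of the 40 met (CPM being counts scaled to a common library total), 34.9% were called higher, 27.0% lower and 62.0% in either direction. The list's median log2 fold change was 0.10, against -0.00 for all genes tested and 0.04 for the more abundant genes. That median was 0.05 without shMETTL14 replicate 1 and 0.06 without shNC replicate 1, and it was 0.03 when libraries were scaled by their upper quartile.

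The changes were small. Only 8 of the 21 called genes differed by 1.5-fold or more, 4 higher (LAMP1, GLA, FUCA2 and SMPD1) and 4 lower (CTSF, CTSH, IDUA and NPC2), where 7.44% of all genes tested were called higher and 11.4% lower at that size. The 2 groups did not overlap in CPM for 30 of the 40 genes, 75%, beside 75.5% of all genes tested. In 19 of these shMETTL14 was above and in 11 below, where the background shares were 38.0% and 37.6%. In bulk RNA, a change in the share of cells that make a transcript and a change in its amount per cell cannot be told apart.

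**Figure D1:**
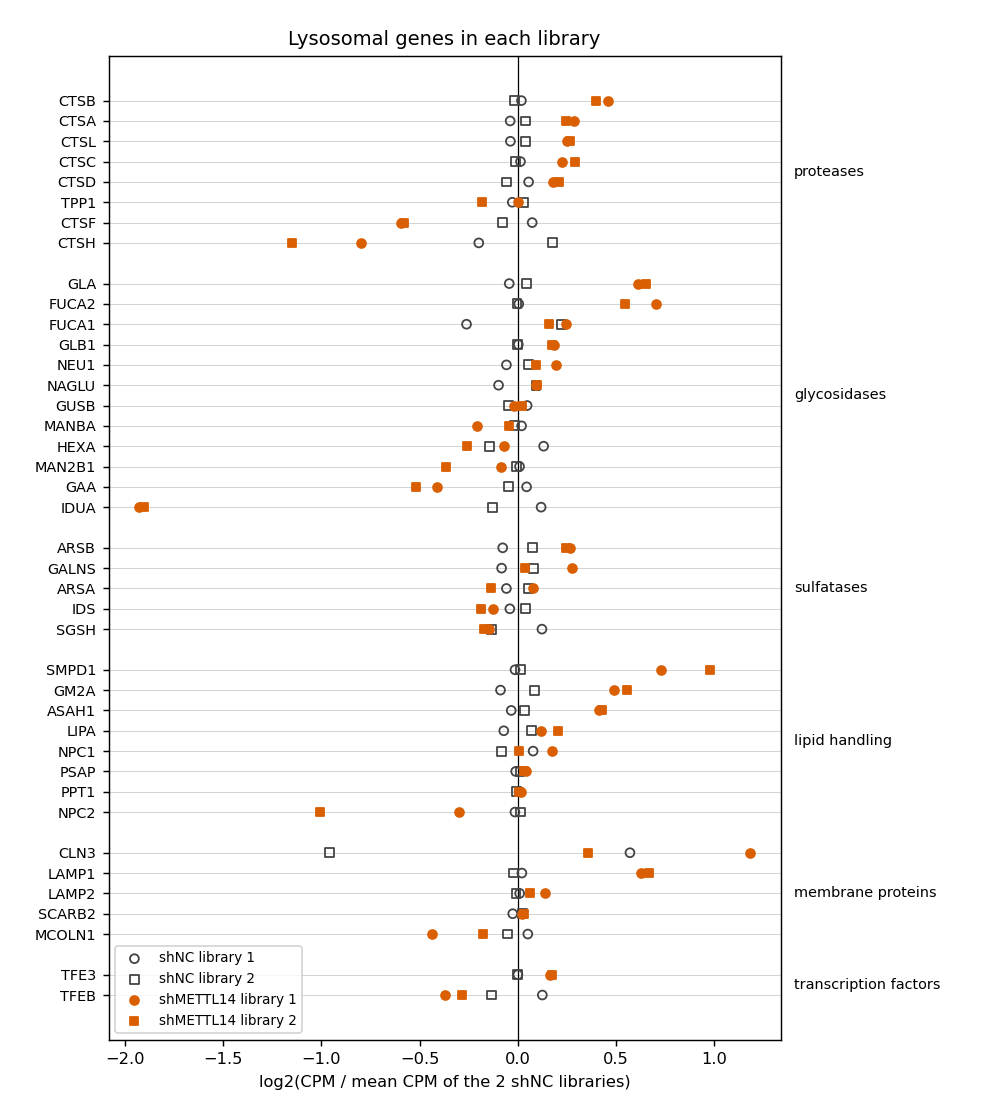
Level of the 40 tested lysosomal genes in each library by role, as log2 of CPM over the mean CPM of the 2 shNC libraries (horizontal axis), with open symbols for shNC and filled symbols for shMETTL14. LAMP1, CTSB, GLA, FUCA2, SMPD1 and GM2A show both shMETTL14 points to the right of both shNC points, PSAP shows 4 points close together, and the shMETTL14 points of NPC2 lie far apart.

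Calls by abundance were read beside those of all genes at the same counts. Of the 10 genes with a mean of at least 1000 reads in shNC, 6 were higher, none was lower and 4 were not called, where 39.7% of all genes tested at that level were called higher and 30.3% lower. Of the 30 below that level, 9 were higher, 6 were lower and 15 were not called, where the background was 22.6% higher and 23.4% lower. In RPKM, which is CPM divided by the transcript length in kilobases, the order of levels in shNC began with PSAP at 190.2 and 193, CTSC at 112 and 110.2, SCARB2 at 69.7 and 72.3, LAMP1 at 54.7 and 53.2, PPT1 at 48.2 and 47.8 and CTSB at 43.2 and 42.1. These 6 did not overlap with their neighbours in the order. At the bottom were IDUA, at 0.49 and 0.41 RPKM, and CLN3, at 0.16 and 0.05 RPKM. In shMETTL14, LAMP1 stood at 83.1 and 85.5 RPKM, above SCARB2 at 72.0 and 72.5, so those genes changed places.

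Summed over the 40 genes, the level was 2556 and 2570 CPM in shNC and 2863 and 2848 CPM in shMETTL14. Both shMETTL14 sums were above both shNC sums, at 111% of the control mean. LAMP1, CTSB and CTSC, chosen as the largest differences in CPM, contributed 61.8% of this difference of 293 CPM. Without these 3 the sum was 2038 CPM in shNC and 2150 CPM in shMETTL14, or 106% of control. The sums over all 16309 genes tested were also higher in shMETTL14, at 1014270 and 1017220 CPM beside 982191 and 986819 CPM in shNC. The part of that wider difference in the lysosomal sums was not tested.

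**Figure D2:**
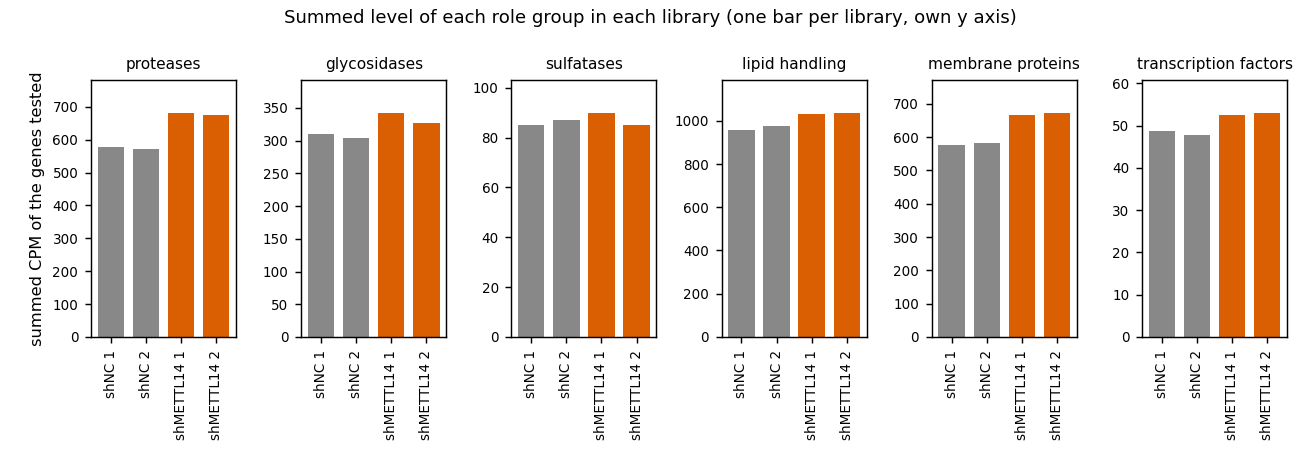
Summed CPM of the tested lysosomal genes of each role (vertical axes, each from 0 with its own scale), with 1 bar per library, grey for shNC and orange for shMETTL14. The sums of proteases (576 and 571 against 681 and 676 CPM) and membrane proteins (576 and 582 against 665 and 672 CPM) were higher in both shMETTL14 libraries, whereas the sulfatase libraries overlapped.

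The proteases were the role with the most calls, 5 higher (62.5%) and 2 lower (25%) of 8 tested, with a median log2 fold change of 0.23. The background was 27.2% higher and 25.3% lower over all genes tested, and 34.9% and 27.0% where log2 CPM averaged 2 or more. CTSB, a cysteine protease with both endopeptidase and exopeptidase activity, was counted 3338 and 3127 times in shNC and 4452 and 4196 times in shMETTL14, a log2 fold change of 0.43 ± 0.04 (SE, edgeR adjusted p = 1.74e-08). CTSC, the dipeptidyl peptidase that activates granule serine proteases in immune cells, had 4300 and 4055 reads against 4888 and 5030, a log2 fold change of 0.26 ± 0.04 (edgeR adjusted p = 1.62e-05). CTSA, the carboxypeptidase that also protects beta-galactosidase and neuraminidase in a complex, had 1182 and 1198 reads against 1453 and 1390, a log2 fold change of 0.27 ± 0.05 (edgeR adjusted p = 0.000258). NEURL2 on the other strand covers 17.7% of the exon bases of CTSA. For each of these 3 genes both shMETTL14 libraries were above both shNC libraries in CPM. CTSL, another cysteine endopeptidase, rose from 503 and 509 to 604 and 599 reads, a log2 fold change of 0.26 that was 0.22 and not called without shNC replicate 1. CTSD, the main aspartic protease of the lysosome, had the largest adjusted p of the called genes. It had 515 and 458 reads in shNC and 552 and 554 in shMETTL14, a log2 fold change of 0.19 (edgeR adjusted p = 0.0484), and the call was lost without shNC replicate 2 (0.15), without shMETTL14 replicate 1 (0.21) and without shMETTL14 replicate 2 (0.19). Another annotated gene on the same strand covers 41.7% of the exon bases of CTSD, so its reads are uncertain.

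The other proteases went down or were not called. CTSF (chr11:66563463-66568841 in GRCh38), a cysteine protease with a long cystatin-like propeptide, was counted 620 and 537 times in shNC and 383 and 381 times in shMETTL14. This was 66.5% of control, a log2 fold change of -0.59 ± 0.09 (SE, edgeR adjusted p = 5.37e-06). CTSH (chr15:78921058-78949574), an aminopeptidase, was scarce, with 94 and 117 reads against 61 and 47, and it fell by 0.96 ± 0.21 on the log2 scale (edgeR adjusted p = 0.000596). The groups did not overlap for either gene. TPP1, the tripeptidyl peptidase whose loss causes a childhood form of neuronal ceroid lipofuscinosis, had 932 and 931 reads in shNC and 933 and 809 in shMETTL14, and its libraries overlapped (log2 fold change -0.09, 95% interval -0.23 to 0.05).

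**Figure D3:**
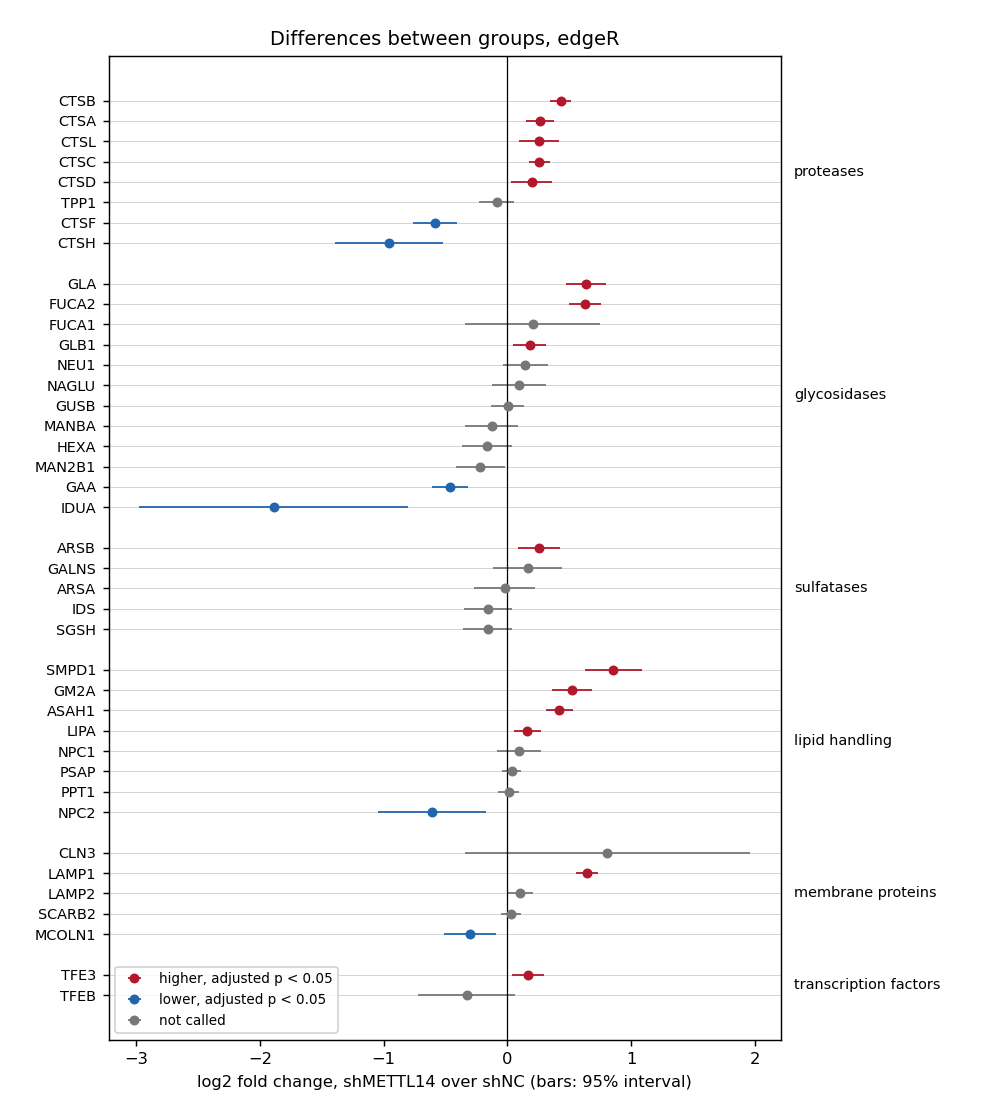
Log2 fold change of shMETTL14 over shNC for the 40 tested lysosomal genes by role, with 95% intervals from edgeR and colours for the call at an adjusted p under 0.05. Values ran from -1.89 for IDUA to 0.86 for SMPD1 among called genes, and CLN3, with few reads, has the widest interval on the positive side.

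Of the 12 glycosidases, which remove sugars from glycoproteins, glycolipids and glycogen, 3 were higher (25%) and 2 lower (16.7%). Of all genes tested 27.2% were higher and 25.3% lower. The median log2 fold change of the glycosidases was 0.05. GLA (chrX:101397803-101408012), the alpha-galactosidase deficient in Fabry disease, was counted 449 and 458 times in shNC and 695 and 702 times in shMETTL14, 155% of control (log2 fold change 0.63 ± 0.08, edgeR adjusted p = 5.7e-07). FUCA2 (chr6:143494811-143511690), a secreted alpha-fucosidase, changed by a like amount, from 927 and 885 reads to 1478 and 1304 (log2 fold change 0.63 ± 0.06, edgeR adjusted p = 1.72e-08). Its paralogue FUCA1, the lysosomal alpha-fucosidase, was much less abundant, with 38 and 51 reads against 53 and 49, and was not called. GLB1, the beta-galactosidase, had 853 and 817 reads against 951 and 927. Its log2 fold change of 0.18 was called with all libraries (edgeR adjusted p = 0.0208) but not when any 1 of the 4 was left out, with values of 0.18 to 0.19.

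GAA (chr17:80101556-80119879), the acid alpha-glucosidase that degrades glycogen and is deficient in Pompe disease, went the other way. It was counted 933 and 842 times in shNC and 668 and 609 times in shMETTL14, 72.4% of control (log2 fold change -0.47 ± 0.07, edgeR adjusted p = 1.04e-05). IDUA (chr4:986997-1004506), the alpha-iduronidase of glycosaminoglycan breakdown, showed the largest fold change of the list but very few reads, 21 and 17 in shNC against 5 and 5 in shMETTL14. Its log2 fold change was -1.89 ± 0.52 (edgeR adjusted p = 0.00441), and without shNC replicate 1 it was -1.76 and not called. SLC26A1 lies on the other strand across 13.3% of the exon bases of IDUA.

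The other 7 glycosidases were not called. GUSB, the beta-glucuronidase, had 1009 and 907 reads in shNC and 946 and 958 in shMETTL14, a log2 fold change of 0.00 with a 95% interval of -0.13 to 0.13. HEXA, the alpha subunit of beta-hexosaminidase, had 519 and 412 reads against 443 and 382, and was called lower (log2 fold change -0.29) only without shNC replicate 2. MAN2B1, the lysosomal alpha-mannosidase, had 474 and 450 reads against 436 and 353 (log2 fold change -0.22, edgeR adjusted p = 0.0577) and lay close to the threshold. It was called lower with all 4 libraries under upper quartile scaling (-0.29), library size alone (-0.26), a filter of at least 10 counts (-0.24) and the replicate block (-0.22), and also without shMETTL14 replicate 1 (-0.36), and 13.1% of its exon bases lie in another annotated gene of the same strand. NEU1, the sialidase, stood at a log2 fold change of 0.14, NAGLU, an enzyme of heparan sulfate breakdown, at 0.10 and MANBA, the beta-mannosidase, at -0.13.

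The sulfatases, which take sulfate groups off glycosaminoglycans and sulfolipids, had 1 call among 5 genes (20%), with a median log2 fold change of -0.02. Of all genes tested 52.5% were called in either direction. ARSB, which acts on dermatan and chondroitin sulfate, was counted 467 and 498 times in shNC and 581 and 563 times in shMETTL14 (log2 fold change 0.25 ± 0.08, edgeR adjusted p = 0.0126), and was 0.18 and not called without shNC replicate 1. ARSA, the sulfatase of sulfatide breakdown, had 225 and 234 reads against 243 and 206, with overlapping libraries. The 95% interval of its difference ran from -0.27 to 0.22 on the log2 scale. IDS, the iduronate sulfatase, which shares 16.5% of its exon bases with another annotated gene of the same strand, stood at -0.16 and GALNS, which acts on keratan sulfate, at 0.16, and neither was called. SGSH, the heparan N-sulfatase, stood at -0.16 and was called lower (-0.28) only without shNC replicate 2.

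Lipid handling held 4 higher (50%) and 1 lower (12.5%) of 8 genes, with a median log2 fold change of 0.13. The background was 27.2% higher and 25.3% lower over all genes tested, and 34.9% and 27.0% where log2 CPM averaged 2 or more. SMPD1 (chr11:6390431-6394998), the acid sphingomyelinase that releases ceramide, was counted 202 and 198 times in shNC and 332 and 388 times in shMETTL14, 181% of control (log2 fold change 0.86 ± 0.11, edgeR adjusted p = 1.18e-06). ASAH1, the acid ceramidase that acts on its product, went from 1109 and 1116 reads to 1483 and 1474 (log2 fold change 0.42 ± 0.05, edgeR adjusted p = 8.4e-07). GM2A (chr5:151212150-151270440), the activator that presents ganglioside GM2 to beta-hexosaminidase, went from 536 and 580 reads to 785 and 809 (log2 fold change 0.52 ± 0.08, edgeR adjusted p = 6.51e-06). For these 3 sphingolipid genes the groups did not overlap. LIPA, the acid lipase that splits cholesteryl esters, had 1827 and 1934 reads against 2047 and 2136. Its log2 fold change of 0.16 (edgeR adjusted p = 0.0116) was 0.09 without shNC replicate 1 and 0.13 without shMETTL14 replicate 2, and not called in either case.

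PSAP, the precursor of the saposins that assist several sphingolipid hydrolases, was the most abundant gene of the list and was not called, with 10890 and 10624 reads in shNC and 11082 and 10815 in shMETTL14. Its log2 fold change was 0.03 with a 95% interval of -0.04 to 0.11. PPT1, the palmitoyl-protein thioesterase, was not called either, with 3856 and 3672 reads against 3810 and 3725 and an interval of -0.07 to 0.09, although CAP1 on the other strand covers 23.4% of its exon bases. At these depths a change of the size seen for ASAH1 lay outside both intervals.

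The 2 Niemann-Pick type C genes, which together move cholesterol out of the lysosome, differed in their values. NPC1, the membrane protein, had 579 and 498 reads against 609 and 531 and was not called (log2 fold change 0.09). NPC2, the soluble carrier, had 103 and 101 reads in shNC and 83 and 50 in shMETTL14, a log2 fold change of -0.61 ± 0.21 (edgeR adjusted p = 0.0196). That value rested on shMETTL14 replicate 2. Without it the log2 fold change was -0.29 and not called, without shMETTL14 replicate 1 it was -1.0, and without shNC replicate 2 it was -0.59 and not called.

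LAMP1 (chr13:113297241-113323672), one of the main glycoproteins lining the lysosomal membrane, had the smallest adjusted p of the list. It was counted 2942 and 2747 times in shNC and 4393 and 4441 times in shMETTL14, or 146 ± 2.93 against 228 ± 4.52 CPM (SD, n = 2 each). Its log2 fold change was 0.64 ± 0.04 (edgeR adjusted p = 2.66e-11). LAMP2, its relative, which also serves in chaperone-mediated autophagy, had 1456 and 1381 reads against 1565 and 1460 (log2 fold change 0.10, 95% interval -0.00 to 0.21, edgeR adjusted p = 0.0994). SCARB2, the receptor that carries glucocerebrosidase to the lysosome, had 6660 and 6632 reads against 6758 and 6683 (log2 fold change 0.03, interval -0.06 to 0.11). The intervals of LAMP2 and SCARB2 both ended below that of LAMP1, which began at 0.56.

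MCOLN1, the calcium channel TRPML1, was lower, with 417 and 373 reads in shNC and 292 and 344 in shMETTL14 (log2 fold change -0.30 ± 0.10, edgeR adjusted p = 0.0154). It was -0.25 without shNC replicate 1 and -0.17 without shMETTL14 replicate 1, and in neither case called. CLN3, a membrane protein mutated in juvenile neuronal ceroid lipofuscinosis, had 12 and 4 reads against 18 and 10, with 25.2% of its exon bases in another annotated gene of the same strand, so its counts are uncertain.

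Of the transcription factors that act on lysosomal genes, TFE3 was the more abundant. It was counted 866 and 832 times in shNC and 954 and 942 times in shMETTL14, 43.4 and 43.4 against 48.7 and 48.9 CPM. Its log2 fold change of 0.17 ± 0.06 (edgeR adjusted p = 0.0276) was not called when any 1 library was left out, at 0.16 to 0.18. TFEB was less abundant, with 106 and 85 reads against 74 and 77, and was not called (log2 fold change -0.33, edgeR adjusted p = 0.152). MITF, a relative, had 198 and 217 reads against 194 and 162 and was not called, and TFEC had 1 and 0 against 0 and 1. The nuclear share of these proteins, through which they are mainly regulated, was not measured.

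Of the 21 calls, 12 held in all 11 alternative settings that were run. The 9 that were higher throughout were CTSA, CTSB, CTSC, GLA, FUCA2, ASAH1, SMPD1, GM2A and LAMP1, and the 3 lower throughout were CTSF, CTSH and GAA. The other 9 calls, CTSD, CTSL, GLB1, IDUA, ARSB, NPC2, LIPA, MCOLN1 and TFE3, were lost with DESeq2 on all libraries. Upper quartile scaling also lost those of CTSD, GLB1, ARSB, LIPA and TFE3. DESeq2 called 9 of the lysosomal genes higher and 3 lower, where it called 18.6% of all genes higher and 14.3% lower. With upper quartile scaling 10 were higher and 8 lower, where the background was 21.8% and 30.4%.

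Promoter sequence was read from RefSeq, 250 bases before to 50 bases after each listed start, for 32 of the 41 genes. The word CACGTG, the E-box core that reads alike on both strands, was in a promoter of 10 of the 32 (31.2%), beside 8.77% of the 27305 genes with a promoter and 12.5% of the 11335 of them that were tested. The longer word TCACGTGA was in 6 of the 32 (18.8%) beside 1.18% of all genes and 2.18% of those tested, and CACGTG with GT before it and AC after it, a palindrome within the motif known for lysosomal genes as CLEAR, was in 3 (9.38%) beside 0.421% and 0.847%. Each longer word contains the shorter one. Because the motif is known from lysosomal genes, its higher share in a lysosomal list is not a separate finding. By call, CACGTG was present in 4 of the 13 genes called higher with a promoter (LAMP1, CTSA, ARSB and CTSD), in 3 of the 6 called lower (CTSF, GAA and MCOLN1) and in 3 of the 12 not called (NEU1, CLN3 and GALNS). The calls of ARSB, CTSD and MCOLN1 were lost with DESeq2 on all libraries. The sites below are shown because the same E-box stood near the start of genes that differed in opposite directions. Each is 26 bases of GRCh38.p14 on the strand of its gene, 5′ to 3′, with CACGTG in capitals. The first is from LAMP1 (chr13:113297201-113297226, plus strand), the next from CTSA (chr20:45891300-45891325, plus strand), which were higher, and then from GAA (chr17:80101495-80101520 and chr17:80101540-80101565, plus strand) and MCOLN1 (chr19:7522600-7522625, plus strand), which were lower, and GALNS (chr16:88857106-88857131, minus strand), which was not called.
LAMP1: cccgcgggatCACGTGacgcccgggc
CTSA: cgccggagttCACGTGactcgtacac
GAA, first site: gaggccgcgtCACGTGacccaccgcg
GAA, second site: tcccgccggtCACGTGacccgcctct
MCOLN1: gctaccgggtCACGTGaccgaggcac
GALNS: ggcaccgcgtCACGTGacccgccgct

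LAMP1 held 6 such words in its window, the most of the list, with the first C of each between 192 bases and 1 base before the start. GAA and MCOLN1 held the full palindrome, GAA in both of its sites, and both genes were lower, MCOLN1 without a call in DESeq2. The other gene with the palindrome, GALNS, had 162 and 174 reads in shNC and 204 and 170 in shMETTL14. A match in sequence is a description and says nothing of whether a factor was bound in these cells.

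**Figure D4:**
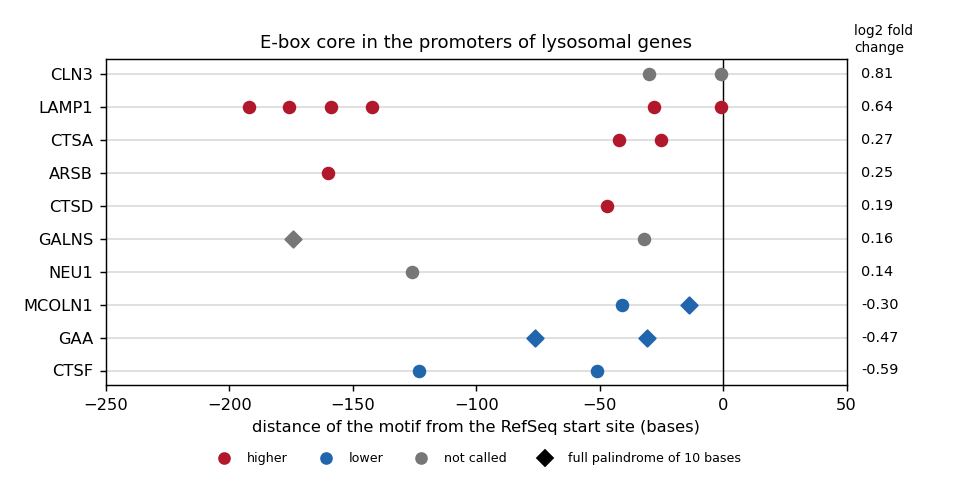
Distance in bases of each CACGTG from the RefSeq start site for the 10 lysosomal genes with this word in their promoter, coloured by call. The vertical line marks the start and diamonds the longer palindrome. CLN3 has another listed start, not drawn, from which its nearer site lies 8 bases downstream. The sites drawn lie between 192 bases and 1 base before the start, LAMP1 carries the most, and genes called higher, lower and not called are all present.

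The transcripts were also searched for GGACT, a common form of the sequence at which m6A is placed, counted per kilobase of the transcript used for RPKM. The median was 1.33 per kb in the 40 tested genes, beside 0.933 in 12788 coding genes tested. It was 1.03 per kb in the 15 genes that were higher, 1.89 in the 6 lower and 1.27 in the 19 not called. The quartiles overlapped, at 0.75 and 1.58 in the higher genes, 1.19 and 2.54 in the lower and 0.95 and 1.48 in those not called. Medians by call were not taken over all coding genes. The median GC content was 53.1% in the 40 tested genes and 49.2% in all coding genes tested. By call it ran in the same order, 51.6% in the higher genes, 54.7% in those not called and 60.5% in the lower genes. The part of GC content in the GGACT values was not tested. No m6A was measured in these libraries.

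A wider set of 176 other genes of the lysosome and its regulation was read in the same fit, of which 164 were tested. Of these 69 were higher (42.1%) and 27 lower (16.5%), beside the 27.2% and 25.3% of all genes tested. Among genes whose log2 CPM averaged 2 or more, the shares were 34.9% higher and 27.0% lower. At a mean of at least 1000 reads in shNC they were 39.7% and 30.3%. The part of abundance in the wider counts was not tested. With upper quartile scaling 48 of the wider genes were higher and 33 lower, beside 21.8% and 30.4% of all genes tested. The V-ATPase subunits counted 15 higher (75%) and 1 lower (5%) of 20 tested, with a median log2 fold change of 0.23. ATP6V0E1 and ATP6V0D1, of the membrane-embedded part of the pump, had 837 and 782 reads against 1441 and 1516 and 795 and 772 against 1251 and 1250 (log2 fold changes 0.88 and 0.68). ATP6V1F, of the cytosolic part, had a log2 fold change of 0.54. ATP6V1E2, an isoform known mainly from testis, was the one lower subunit, at -0.36, while the ubiquitous ATP6V1E1 had 1400 and 1412 reads against 1996 and 1990 (log2 fold change 0.51). Counts of higher subunits ranged from 10 to 15 over the alternatives. CACGTG was in the promoter of 4 of the 17 V-ATPase genes that had one.

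The other 33 hydrolases and cofactors had 9 higher (27.3%) and 7 lower (21.2%), with a median log2 fold change of 0.00. These shares lay near the 27.2% and 25.3% of all genes tested. HYAL2, a hyaluronidase, was at a log2 fold change of 0.98, PLA2G15, a lysosomal phospholipase, at 0.50 and PLBD2 at 0.50, all higher. SIAE, a sialic acid acetylesterase, was at -0.80, CTBS, a chitobiase, at -0.65 and RNASET2, a ribonuclease, at -0.48, all lower, although RNASET2 was -0.45 without shNC replicate 1 and -0.31 without shMETTL14 replicate 1 and then not called. The 32 other membrane proteins and transporters were as evenly split, 9 higher (28.1%) and 7 lower (21.9%), also near the shares of all genes tested. OSTM1, the partner of the chloride transporter CLCN7, had 207 and 243 reads against 455 and 440 (log2 fold change 1.00), and LAMP5, a brain member of the LAMP family, had 636 and 632 against 1176 and 1107 (0.86). LITAF (-0.75), TMEM192 (-0.48) and LMBRD1 (-0.38) were the largest decreases of that class among genes whose log2 CPM averaged 2 or more.

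**Figure D5:**
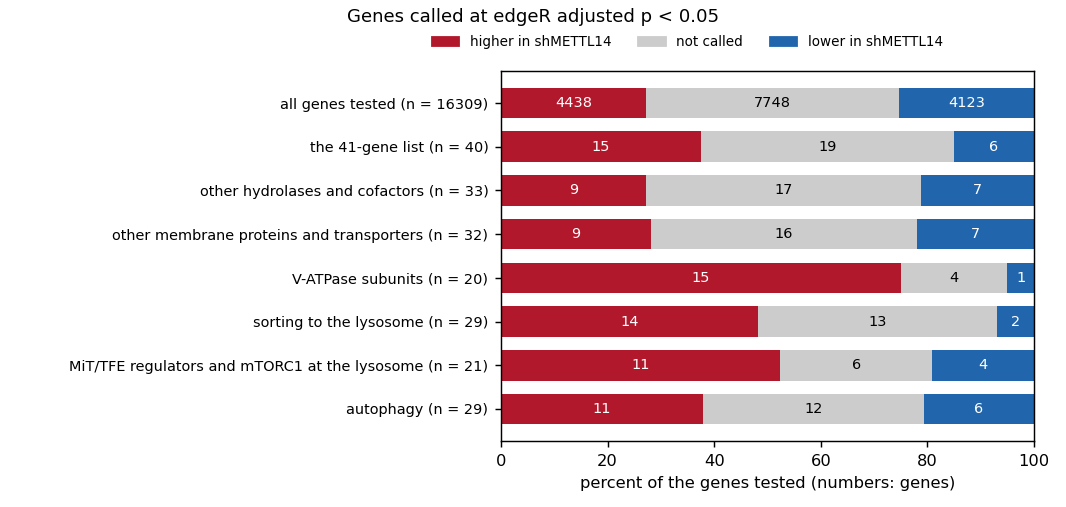
Percent of genes called higher, called lower or not called at an edgeR adjusted p under 0.05, for all 16309 genes tested, the lysosomal list and the classes of the wider lysosome set, with gene numbers in the bars. The V-ATPase has 15 of 20 genes higher, whereas the lysosomal list has 15 of 40.

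Among 29 genes of sorting to the lysosome, 14 were higher (48.3%) and 2 lower (6.90%). The background was 27.2% and 25.3% over all genes tested, and 39.7% and 30.3% at a mean of at least 1000 reads in shNC. M6PR, a mannose 6-phosphate receptor, was higher (1376 and 1306 against 1690 and 1610 reads, log2 fold change 0.31). IGF2R, the other and more abundant mannose 6-phosphate receptor, was not called (4774 and 4335 against 4579 and 4438 reads, log2 fold change -0.005). AP1S1 (0.64), VPS18 (0.61) and VPS29 (0.61) were higher. SORL1, a sorting receptor, and VPS35, a retromer subunit, were lower, both at -0.56. The count of lower genes was 4 without shNC replicate 1. VPS29 and VPS35 belong to the same retromer core and were called in opposite directions, VPS35 falling from 5526 and 5401 to 3721 and 3643 reads.

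Of 21 genes of MiT/TFE regulation and mTORC1 at the lysosome, 11 were higher (52.4%) and 4 lower (19.0%). The background was 27.2% and 25.3% over all genes tested, and 34.9% and 27.0% where log2 CPM averaged 2 or more. Of the 5 Ragulator genes, which anchor mTORC1 signalling at the lysosome, LAMTOR1 (0.31), LAMTOR2 (0.54), LAMTOR4 (0.41) and LAMTOR5 (0.47) were higher and LAMTOR3 (-0.48) was lower. RPTOR, the mTORC1 subunit, was higher at 0.44. ZKSCAN3, a repressor of autophagy genes, was at -0.45, but at -0.19 without shNC replicate 2 and -0.29 without shMETTL14 replicate 2, where it was not called. FNIP2, a folliculin partner, was at -0.20 and lost its call without shNC replicate 1 (-0.11), shMETTL14 replicate 1 (-0.20) or shMETTL14 replicate 2 (-0.19). The number of lower genes in the class was 1 or 2 with any 1 of the 4 libraries removed. FLCN, folliculin, had 141 and 130 reads against 118 and 124 and was not called.

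Autophagy genes, which deliver cargo to the lysosome, counted 11 higher (37.9%) and 6 lower (20.7%) of 29. The background was 27.2% and 25.3% over all genes tested, and 34.9% and 27.0% where log2 CPM averaged 2 or more. WIPI1, a phosphoinositide-binding protein of the early autophagosome, had 69 and 51 reads in shNC and 172 and 150 in shMETTL14, a log2 fold change of 1.43 ± 0.18 (edgeR adjusted p = 6.65e-07). MAP1LC3A (0.63) and ATG4A (0.61) were also higher, ATG4A not being called (0.40) without shNC replicate 2. NBR1, a cargo receptor, had 2804 and 2763 reads against 1705 and 1738, a log2 fold change of -0.68, and ULK2 (-0.75) and GABARAPL1 (-0.67) were lower. SQSTM1, the receptor p62, had 1651 and 1538 reads against 1710 and 1610 and was not called. The number of higher autophagy genes was 7 without shNC replicate 2.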

How the data were processed

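The authors deposited 1 table of whole-number read counts per Ensembl gene for the 4 libraries. Per the submitters' processing notes, the tools were HISAT2 2.1.0, StringTie 1.3.6, HTSeq 0.13.5 and edgeR, with GRCh38. The strand setting and annotation release were not given in the sources used here. The 5 lines that name no gene, 19.1% to 19.9% of counts per library, were left out.

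Genes were kept by filterByExpr (minimum count 10), scaled by TMM and tested on group alone with the quasi-likelihood test of edgeR 4.0.16 (R 4.3.3), with Benjamini-Hochberg adjustment over 16309 genes. Lengths for RPKM, positions and overlaps came from GENCODE 29, in which 20 of the 41 genes overlap another gene in exons. The name table held 60401 of the 60671 identifiers, 42020 of them with a symbol. In data simulated from these libraries, 86% of 200 genes changed by 0.5 on the log2 scale were recovered among 16193 tested. The changed genes were drawn above a minimum expected count, which IDUA and CLN3 do not reach. All genes had the same dispersion and the others were unchanged, whereas 52.5% of genes were called in the data. The share therefore does not give the power for the lysosomal genes. An exact permutation test of 2 against 2 libraries cannot go below p = 0.333 and was not used.

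The genes and lists were chosen with earlier results of these data known. Named were METTL14, every gene of the list, markers and, per class of the wider set, up to 3 called genes each way with the largest changes at a mean log2 CPM of at least 2. MITF, TFEC, FLCN, M6PR, IGF2R, SQSTM1, ATP6V1E1, LAMTOR1 and LAMTOR4 were added after their values were seen. Libraries of 1 group differed by more than sampling noise (mean chi-square per gene 2.66 within shNC and 2.21 within shMETTL14, 30.5 to 31.5 between groups). Alternatives were RLE, upper quartile and library size scaling, at least 10 counts in every library, no filter, DESeq2 1.42.0, a replicate block and each library left out.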

Additional observations from a re-analysis of the deposited data

How the results depend on the processing

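METTL14 kept its call at log2 fold changes from -1.33 to -1.25 under scaling, filter, tool and block changes, and at -1.31 to -1.21 with single libraries left out. Over the 11 alternatives the 40 lysosomal genes gave 9 to 15 higher calls and 3 to 8 lower ones. DESeq2 gave the fewest, 9 and 3, and in the wider set 42 higher and 16 lower. Upper quartile scaling moved the median of all genes by -0.068 and their calls from 4438 higher and 4123 lower to 3550 and 4961, and the list's median was 0.031. With library size alone that median was 0.054, and with single libraries left out it was 0.055 to 0.137, with 10 to 12 higher and 4 to 7 lower. Signs turned only for genes that were not called. GUSB was at -0.0032 with RLE, -0.067 with upper quartile, -0.044 with library size and -0.017 with at least 10 counts. Under upper quartile and library size scaling PSAP was at -0.033 and -0.010, PPT1 at -0.057 and -0.034 and SCARB2 at -0.042 and -0.020, and PPT1 was at -0.0073 with at least 10 counts. With single libraries left out the ranges were -0.18 to 0.0077 for TPP1, -0.041 to 0.046 for GUSB, -0.0017 to 0.20 for NAGLU, -0.024 to 0.47 for FUCA1, -0.13 to 0.088 for ARSA and -0.0052 to 0.056 for SCARB2. Whether same-numbered libraries were prepared together is not given in the labels, and the correlation of their deviations, 0.072, cannot decide it. The replicate block changed the calls over all genes from 4438 higher and 4123 lower to 4619 and 4307. With the replicate block, METTL14 was at -1.26, the list had 15 higher and 7 lower with a median of 0.10, and the wider set had 70 higher and 30 lower. At this depth IDUA, CLN3, CTSH, NPC2, TFEB and FUCA1, with few reads, were resolved only for large changes. The cause of these shifts was not tested.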
